A study of Mus musculus with 6 samples.

Results

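The contractile genes of vascular smooth muscle were followed in mouse aorta: Acta2, Actg2, Myh11, Myl9, Tagln, Cnn1, Smtn, Lmod1, Des and Myocd. These 10 genes were taken by symbol from a table of 56748 genes, and all 10 were among the 16377 genes abundant enough to test. The libraries came from bulk aortas of 6-month-old littermates that were all labelled as lacking apolipoprotein E (ApoE-KO) and all received angiotensin II (AngII) from an osmotic minipump for 28 days. One group was wild type for soluble ST2 (WT, n = 3) and the other lacked it (sST2-KO, n = 3). Soluble ST2 is the secreted form of the receptor for the cytokine IL-33. The design text gives 3 mice to a group. How the soluble form was deleted and which segment of aorta was taken was not given in the sources used here.

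Smooth muscle cells of the arterial media contract when calcium activates myosin light chain kinase, and the phosphorylated myosin then pulls on actin filaments. The genes for these filaments are switched on together by serum response factor (SRF) with its cofactor myocardin, which acts at short DNA elements called CArG boxes. In injured or diseased arteries smooth muscle cells are known to lower these genes and to make more matrix and inflammatory products, a state called modulated or synthetic. In whole tissue, fewer smooth muscle cells and less contractile RNA per cell cannot be told apart.

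The bases upstream of the transcription start are shown for the members that carried a CArG box or a near match, since these are the elements through which SRF and myocardin act on the family. RefSeq promoter sequences (GRCm38.p6, a different build from the mm39 coordinates of the counts) matched 6 of the 10 members: Acta2, Cnn1, Myl9, Smtn, Lmod1 and Des. A CArG box was searched as CC, 6 bases that are each A or T, then GG, and a near match as the same form with 1 of the inner bases not A or T. Both forms read as CC to GG on either strand, so each place was counted once. Capitals mark these matches in the 250 bases before the start, printed 5′ to 3′ on the gene's strand.
Acta2 (chr19:34255374-34255623, minus strand): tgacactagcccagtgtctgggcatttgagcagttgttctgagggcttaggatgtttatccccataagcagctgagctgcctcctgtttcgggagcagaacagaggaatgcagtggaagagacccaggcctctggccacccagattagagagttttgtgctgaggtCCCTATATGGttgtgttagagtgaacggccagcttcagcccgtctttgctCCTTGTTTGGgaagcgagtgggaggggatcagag
Myl9 (chr2:156775214-156775463, plus strand): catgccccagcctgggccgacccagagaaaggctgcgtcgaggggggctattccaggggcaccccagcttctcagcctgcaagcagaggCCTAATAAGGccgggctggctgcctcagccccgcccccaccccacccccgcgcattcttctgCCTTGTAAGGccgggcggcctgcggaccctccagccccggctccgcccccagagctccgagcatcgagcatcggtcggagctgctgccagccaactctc

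The Acta2 window held 2 near matches, CCCTATATGG beginning at -84 and CCTTGTTTGG beginning at -34 from the start. The Myl9 window held 1 full CArG box, CCTAATAAGG at -161, and 1 near match, CCTTGTAAGG at -99. No match to these letters was in the windows of Cnn1, Smtn, Lmod1 or Des. Of 32851 promoters in the RefSeq table, 1.47% held a full CArG box and 7.24% a near match in the same 250 bases, beside 1 and 2 of the 6 member promoters. The motif CATTCC, a binding form of TEAD factors, was on either strand in the windows of Acta2, Smtn and Lmod1, 3 of 6 members, and in 12.6% of all promoters. The motif TATAAA, searched on both strands, was in 0 of the 6 member windows and in 12.4% of all promoters.

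Library totals ran from 15615658 to 17988552 counts. Genes encoded by mitochondria took 37.8% of counts in WT replicate 2, 7.08% in sST2-KO replicate 2 and 18.4 to 23.7% in the other 4 libraries. The airway epithelial markers summed to 141255 TPM (counts per gene length, scaled to one total) in sST2-KO replicate 2 and to at most 76.3 TPM elsewhere. The hepatocyte markers summed to 13510 TPM in WT replicate 3 and to at most 278.6 TPM elsewhere. Il1rl1, which encodes both forms of ST2, ran from 2.39 to 9.49 CPM (counts scaled to library size with TMM factors) with overlapping groups, and a gene count does not separate the deleted form. Apoe itself was counted in every library, although all are labelled as lacking the protein. It was at 15.1, 11.6 and 507 CPM for WT replicates 1 to 3, against 172, 86.7 and 145 CPM for sST2-KO replicates 1 to 3. The 507 CPM came from the library with hepatocyte transcripts. The cause of these differences was not tested.

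Smooth muscle transcripts were present in every library, led by the actin gene Acta2. Together the 10 genes took 0.396%, 0.814% and 0.558% of the counts of WT replicates 1 to 3, against 0.598%, 0.823% and 1.19% for sST2-KO replicates 1 to 3. The widest 95% exact Clopper-Pearson interval was 1.18 to 1.19%, for sST2-KO replicate 3, and such intervals cover counting error only. Without mitochondrially encoded counts these shares were 0.485%, 1.31% and 0.692% (WT) and 0.784%, 0.885% and 1.498% (sST2-KO). The groups overlapped by both measures, since WT replicate 2 lay with the sST2-KO libraries.

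None of the 10 genes passed the test between genotypes, and 9 of 10 had positive log2 changes, meaning a higher level in sST2-KO. The median over the 10 was 0.38, beside 0.042 over all tested genes, of which 53.5% were positive. At an adjusted p under 0.05 (edgeR quasi-likelihood test), 0 members were higher and 0 lower, beside 0% of all tested genes in either direction. An unadjusted p under 0.05 was found for 2 members, Actg2 and Des, both higher in sST2-KO, and for 0 lower members, beside 5.08% and 5.95% of all tested genes. DESeq2 called 0 members, beside 0.383% of genes called higher and 1.47% called lower. The groups did not overlap for 1 member, Des, beside 9.09% of all tested genes higher and 10% lower (1644 of 16377). Without sST2-KO replicate 3 the median was 0.13 and 6 of 10 members were positive. Leaving out WT replicate 1 gave 0.14, and leaving out WT replicate 2 gave 0.77.

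**Figure D1:**
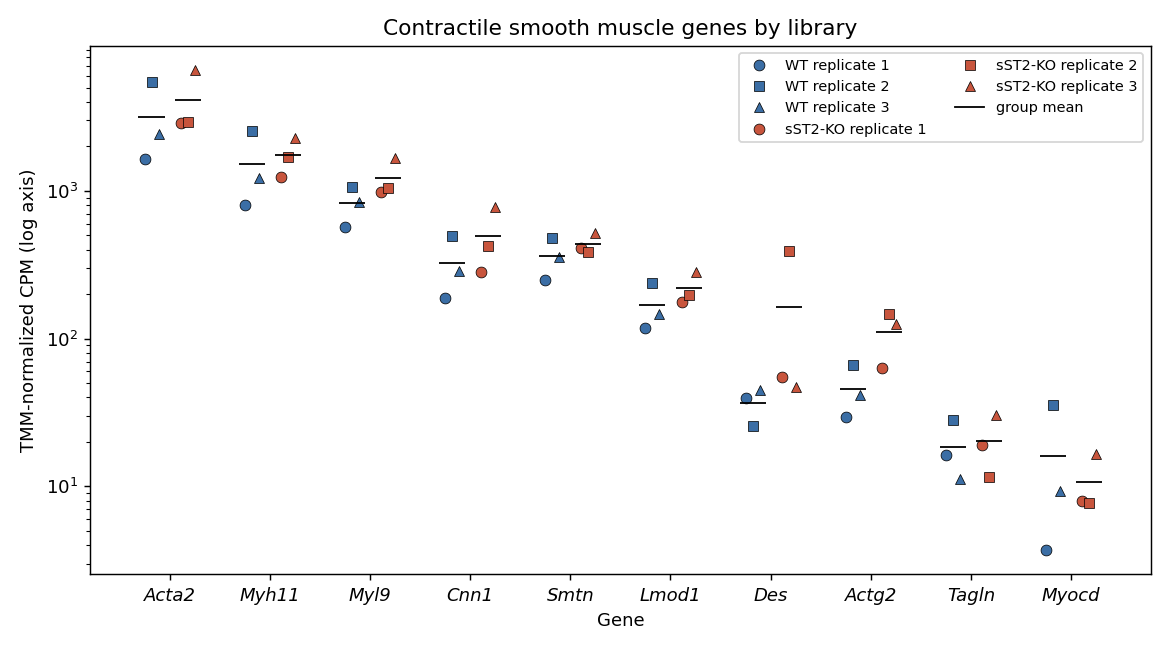
Level of the 10 contractile genes in each library, as TMM-normalized CPM on a log axis, with a line at each group mean (n = 3). WT replicate 2 lies with or above the sST2-KO libraries for most genes, and Des at 391 CPM in sST2-KO replicate 2 stands apart.

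Acta2 encodes smooth muscle alpha-actin, the main thin filament protein of the arterial media (ENSMUSG00000035783, chr19:34218490-34232990, mm39, minus strand). WT replicates 1 to 3 held 1644, 5479 and 2411 CPM of it, and sST2-KO replicates 1 to 3 held 2889.5, 2933 and 6588 CPM. One library in each group was high, WT replicate 2 and sST2-KO replicate 3, and the groups overlapped. Mean levels were 3178 ± 2029.6 CPM (WT) and 4137 ± 2123 CPM (sST2-KO; SD, n = 3 each). The log2 change, 0.38 with an SE of 0.57, did not pass (edgeR adjusted p = 0.789). The SDs were larger than the difference between the means. Without sST2-KO replicate 3 the log2 change was -0.13, and without WT replicate 2 it was 1.01. Of 50-base stretches of the longest Acta2 transcript in GENCODE vM21, 0.35% were also in transcripts of other genes, Actg1 among them, so few stretches of that length were shared with another actin.

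Actg2 encodes the smooth muscle gamma-actin that prevails in gut and other visceral muscle (ENSMUSG00000059430, chr6:83489887-83513247, minus strand). Levels were 29.7, 66.3 and 41.4 CPM across the WT replicates, against 62.9, 146 and 125 CPM across those of sST2-KO. In that group 2 libraries lay above every WT library, and sST2-KO replicate 1 lay just under WT replicate 2. The means were 45.8 ± 18.7 and 111 ± 43.4 CPM (SD, n = 3 each). The log2 change of 1.28 (SE 0.40) had the lowest p of the 10 members and did not pass (edgeR unadjusted p = 0.0151, adjusted p = 0.431; DESeq2 adjusted p = 0.0895). It stayed positive with each library left out, from 1.05 without sST2-KO replicate 2 to 1.63 without WT replicate 2. The library with airway transcripts, sST2-KO replicate 2, had the highest Actg2 level, at 146 CPM. The airway markers summed to 31.3 and 32.3 TPM in sST2-KO replicates 1 and 3, but they are epithelial genes and do not measure visceral muscle. The part of adhering tissue in the Actg2 level of any sST2-KO library was not tested. No 50-base stretch of the longest Actg2 transcript was shared with another gene.

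Myh11 encodes the smooth muscle myosin heavy chain, the motor of the thick filament and the marker most restricted to smooth muscle (ENSMUSG00000018830, chr16:14012399-14109236, minus strand). The WT replicates held 797, 2529 and 1229.8 CPM, and those of sST2-KO 1235, 1704 and 2296 CPM. WT replicate 2 was the highest of all 6 libraries and WT replicate 1 the lowest, so the WT group spanned the sST2-KO group. Mean levels were 1519 ± 902 and 1745 ± 531 CPM (SD, n = 3 each). The difference on the log2 scale was 0.20 with an SE of 0.48 (edgeR adjusted p = 0.875). It was -0.0906 without WT replicate 1 and -0.0481 without sST2-KO replicate 3. Myl9 encodes the regulatory light chain whose phosphorylation starts contraction (ENSMUSG00000067818, chr2:156617340-156623578, plus strand). Its replicates ran 573, 1064 and 840.0 CPM (WT) and 977, 1042 and 1661 CPM (sST2-KO), with WT replicate 2 inside the sST2-KO range. Mean levels were 826 ± 246 and 1226 ± 378 CPM (SD, n = 3 each). The difference on the log2 scale was 0.57 with an SE of 0.35 (edgeR adjusted p = 0.538), and it was 0.29 without sST2-KO replicate 3.

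A further 4 members bind or shape actin filaments. Cnn1 encodes calponin, which damps the myosin ATPase (ENSMUSG00000001349, chr9:22010512-22020926, plus strand). Calponin transcripts stood at 187, 499 and 287 CPM (WT) and at 282, 423 and 773 CPM (sST2-KO). Only sST2-KO replicate 3 lay above every WT library. Mean levels were 325 ± 159 and 493 ± 253 CPM (SD, n = 3 each). The log2 change, 0.60 with an SE of 0.48, did not pass (edgeR adjusted p = 0.618), and it was 0.12 without sST2-KO replicate 3.

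Smtn encodes smoothelin, found in fully contractile cells (ENSMUSG00000020439, chr11:3467523-3490612, minus strand). Levels were 249, 479.9 and 357 CPM (WT) and 409, 385 and 519 CPM (sST2-KO), the narrowest spread of the 10 genes at 1.06 log2 units from lowest to highest library. The log2 change was 0.27 with an SE of 0.29 (edgeR adjusted p = 0.706), and it was 0.0766 without WT replicate 1. Lmod1 encodes leiomodin, which nucleates actin filaments in smooth muscle (ENSMUSG00000048096, chr1:135252545-135295803, plus strand). Its replicates ran 117, 239 and 148 CPM (WT) and 177, 196 and 283 CPM (sST2-KO). The log2 change was 0.38 with an SE of 0.32 (edgeR adjusted p = 0.636). Without sST2-KO replicate 3 it was 0.15. For both genes WT replicate 1 was the lowest library and sST2-KO replicate 3 the highest, and the groups overlapped.

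Tagln encodes transgelin (SM22), an actin-binding protein whose transcript is among the most abundant in arterial smooth muscle (ENSMUSG00000032085, chr9:45840917-45847356, minus strand). Its row held 294, 355 and 189 counts (WT) and 334, 233 and 460 counts (sST2-KO). These are 16.2, 28.3 and 11.3 CPM and 19.0, 11.5 and 30.6 CPM, far under Cnn1 and Smtn. In GENCODE vM21, 1349 of the 1988 exonic bases of Tagln, or 67.9%, lie inside exons of genes on the opposite strand, Gm48529 and Pcsk7. The non-coding gene Gm48529 (chr9:45841410-45845036, mm39, plus strand) itself held 189, 132 and 122 counts (WT) and 236, 137 and 278 counts (sST2-KO). Whether strand was used in counting was not given in the sources used here, so these counts cannot be read as the level of the transgelin transcript, and the part of the overlap in the low count was not tested. As counted, the difference on the log2 scale was 0.13 with an SE of 0.45 (edgeR adjusted p = 0.917). It was -0.28 without sST2-KO replicate 3 and -0.11 without WT replicate 3. Among the other members, 16.3% of exonic bases of Smtn and 5.9% of those of Des lay in exons of opposite-strand genes, and 0% in the remaining 7.

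Des encodes desmin, the intermediate filament protein of all muscle types (ENSMUSG00000026208, chr1:75336973-75345223, plus strand). The WT replicates held 39.9, 25.6 and 45.0 CPM, and those of sST2-KO 54.7, 391 and 47.0 CPM. The groups did not overlap, but sST2-KO replicates 1 and 3 lay close to the highest WT library and sST2-KO replicate 2 stood far above. Mean levels were 36.8 ± 10.1 and 164 ± 197 CPM (SD, n = 3 each). The log2 change, 2.16 with an SE of 0.84, did not pass (edgeR adjusted p = 0.443; DESeq2 adjusted p = 0.101). Without sST2-KO replicate 2 it was 0.46 with an SE of 0.26 (edgeR adjusted p = 0.491). That library is the one with airway transcripts. Striated muscle markers did not follow one pattern there. Of the cardiac list only Actc1, cardiac actin, at 161 CPM and Tnni3 at 49.3 CPM (at most 31.2 elsewhere) were highest in it. Myh6, the atrial myosin heavy chain, was at 4.16 CPM beside 153 CPM in WT replicate 1. Of the tested skeletal markers, Tnnt3, Tnni2 and Actn3 were highest in it, at 17.9, 6.48 and 1.78 CPM. Elsewhere they reached at most 3.13, 1.38 and 0.909 CPM. Ckm, Ttn and Mylpf were not highest in it: Ckm was at 4.01 and Ttn at 1.93 CPM, beside 6.12 and 27.6 CPM in WT replicate 1. Acta1, skeletal actin, was at 0.346 CPM. The skeletal muscle markers summed to 55.4 TPM in that library and to 5.58 to 18.5 TPM in the others, with Tnnc2 at 0 counts in all 6 and Myh4 and Pvalb at or under 0.358 CPM. The cardiac markers summed to 419 TPM there and to 17.9 to 656 TPM in the others. The part of these tissues in the Des level was not tested.

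Myocd encodes myocardin, the cofactor through which SRF drives contractile genes (ENSMUSG00000020542, chr11:65067387-65160815, minus strand). It was the least abundant member, at 67, 444 and 156 counts (WT) and 139, 155 and 247 counts (sST2-KO). In CPM these were 3.69, 35.4 and 9.30 against 7.90, 7.67 and 16.4. WT replicate 2 held by far the most and WT replicate 1 the least, so the WT group spanned the sST2-KO group. It was the 1 member with a negative log2 change, -0.59 with an SE of 0.78 (edgeR adjusted p = 0.758), and that direction came with WT replicate 2: without it the log2 change was 0.698.

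**Figure D2:**
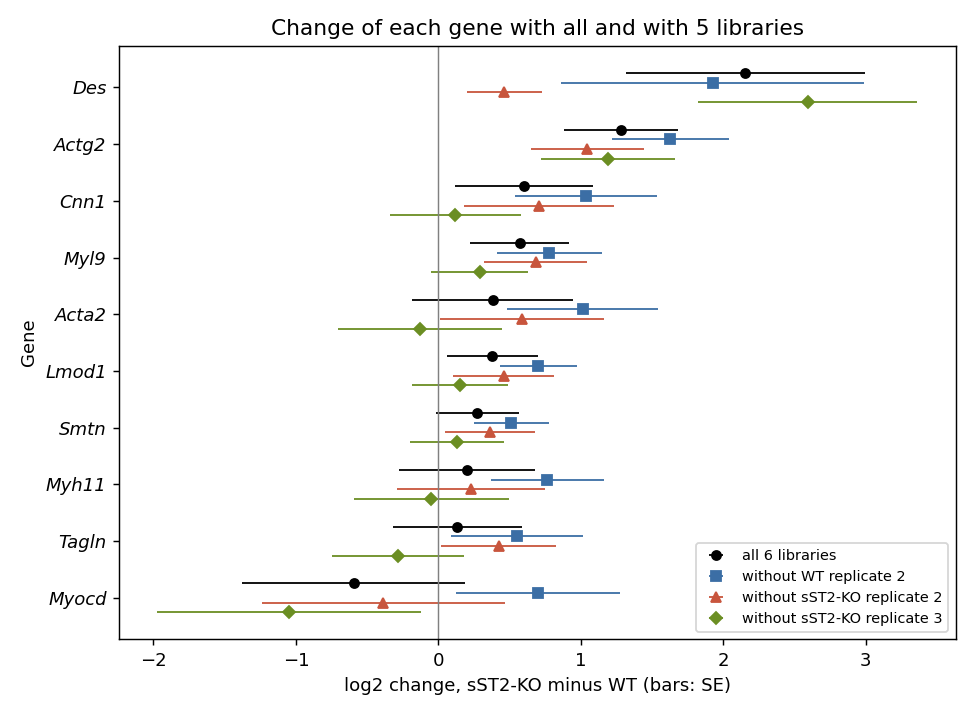
Log2 change of each contractile gene between sST2-KO and WT with its SE, for all 6 libraries and with 1 library left out. Des falls from 2.16 to 0.46 without sST2-KO replicate 2, and Myocd moves from -0.59 to 0.698 without WT replicate 2.

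The libraries differed along a common order for most of the family. Relative to each gene's own mean, the median over the members was -0.85, 0.40 and -0.34 log2 units for WT replicates 1 to 3, against -0.12, 0.087 and 0.71 for sST2-KO replicates 1 to 3. WT replicate 1 was the lowest library for 8 of 10 members, and sST2-KO replicate 3 was the highest for 6. The exceptions at the top were Myh11 and Myocd, highest in WT replicate 2, and Actg2 and Des, highest in sST2-KO replicate 2. The spread from lowest to highest library was 1.06 to 2.30 log2 units for 8 members, 3.22 for Myocd and 3.93 for Des. Lmod1 followed the median most closely, with a root mean square difference of 0.091 log2 units over the 6 libraries, and Des least closely at 1.33.

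**Figure D3:**
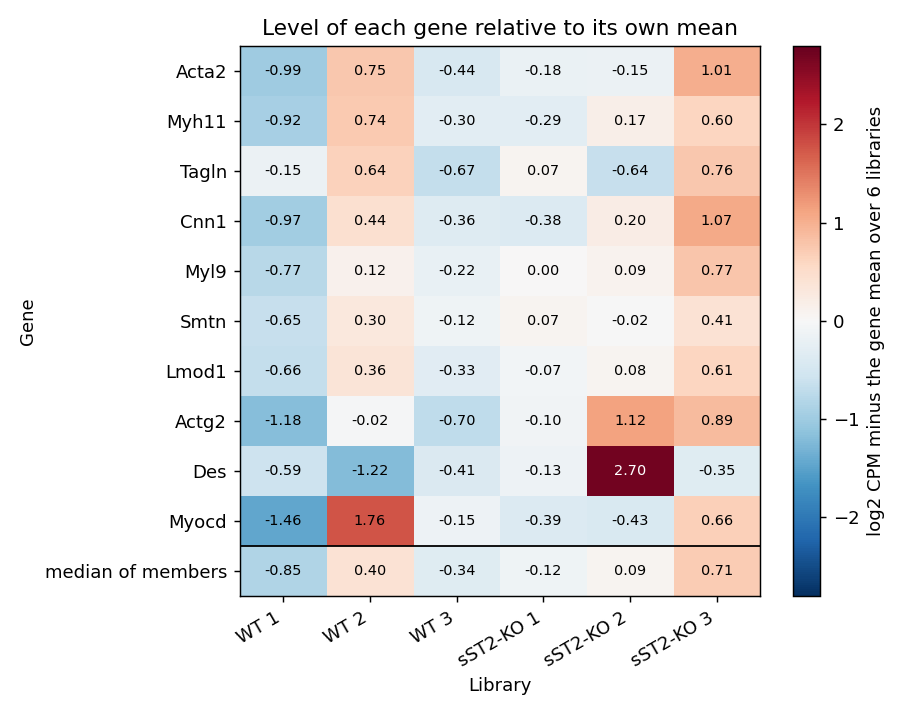
Log2 CPM of each contractile gene minus its mean over the 6 libraries, with the median of the 10 genes in the last row. WT replicate 1 is lowest in 8 rows of genes, and the cells farthest from the median are Des at 2.70 in sST2-KO replicate 2, Des at -1.22 in WT replicate 2 and Myocd at 1.76 in WT replicate 2.

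Ratios within a library set aside how much smooth muscle RNA the library holds only where both genes come from the same cells. Actg2 and Des are also made in other muscle, so their ratios can still carry tissue makeup. Acta2 relative to Myh11 was 1.04, 1.12 and 0.97 log2 units (WT) and 1.23, 0.78 and 1.52 (sST2-KO), so the balance of the main actin and myosin transcripts overlapped between groups. Actg2 relative to Myh11 was -4.74, -5.25 and -4.89 log2 units (WT) and -4.29, -3.54 and -4.20 (sST2-KO). Every sST2-KO library lay above every WT library in this ratio, beside 0.366% of all tested genes higher and 3.89% lower. The mean difference was 0.95 log2 units. Myh11 itself was lowest in WT replicate 1, which raises the ratio there of any gene that does not follow Myh11. The 0.366% is therefore not a share for genes that follow Myh11. Without the ratio, 9.09% of all tested genes were higher without overlap in CPM and 8.16% in TPM, and Actg2 overlapped in CPM. The highest Actg2 ratio was in sST2-KO replicate 2, the library with airway transcripts, and the part of tissue makeup in it was not tested. Actg2 was the only one of the 9 members set against Myh11 whose groups did not overlap. Myocd relative to Myh11 was -7.71, -6.15 and -7.03 (WT) and -7.27, -7.77 and -7.12 (sST2-KO).

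Per length of gene, the order of the transcripts was nearly constant. In TPM, Acta2 led in all 6 libraries at 1936 to 6651, followed by Myl9 at 1275 to 3169, Myh11 at 271 to 669.8 and Cnn1 at 177 to 626. These ranks, 1 to 4, held in every library. Myh11 and Cnn1, neighbours in that order, had overlapping ranges over the libraries. Smtn followed at 147 to 262 TPM and Lmod1 at 76.9 to 159 TPM. Actg2 was at 60.4 ± 9.67 TPM in WT and 181 ± 93.7 TPM in sST2-KO (SD, n = 3 each), and its rank by group mean was 7 for WT and 6 for sST2-KO, with Lmod1 as the neighbour it passed. Des was at 10.7 to 305.8 TPM, Tagln as counted at 13.8 to 34.1 TPM and Myocd at 1.49 to 8.66 TPM. On this scale, with no TMM factor, 4 members had groups that did not overlap, Myl9, Smtn, Lmod1 and Actg2, all higher in sST2-KO, beside 8.16% of all tested genes higher and 3.60% lower. The scales differ most in WT replicate 2, whose TMM factor was 0.781, and in sST2-KO replicate 2, whose factor was 1.19. In TMM-normalized CPM the groups overlapped for all 4, with WT replicate 2 inside the sST2-KO range for each. The separation in TPM therefore depended on the scale. Mitochondrially encoded genes were kept on both scales, and took 37.8% of counts in WT replicate 2 and 7.08 to 23.7% in the sST2-KO libraries. The airway markers took 141255 TPM in sST2-KO replicate 2. Overlap in TPM without these genes was not computed.

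Other genes of the contractile machinery, its regulators and its inputs gave no gene past the threshold in edgeR in either direction. Among 32 other filament and adhesion genes, 20 (62.5%) had positive log2 changes, beside 53.5% of all tested genes. The median was 0.12, beside 0.042. An unadjusted edgeR p under 0.05 was found for 0 of the 32, beside 5.08% of all tested genes higher and 5.95% lower. Their groups did not overlap for 1 gene, the myosin light chain Myl6, at 1061 ± 30.4 CPM (WT) and 1490.2 ± 539 CPM (sST2-KO; SD, n = 3 each), beside 9.09% of all tested genes higher and 10% lower. The tropomyosin Tpm2 was at 458 ± 110 and 716 ± 297 CPM, a log2 change of 0.64 (SE 0.35). The integrin Itga7 had a log2 change of 0.698 (SE 0.44) and the myosin phosphatase inhibitor Ppp1r14a 0.55 (SE 0.39). Csrp1, among the most abundant of this list per length, was at 0.34 (SE 0.41). Without sST2-KO replicate 3 the log2 changes were 0.25 for Tpm2, 0.0955 for Itga7, 0.15 for Myl6, 0.0570 for Csrp1 and -0.0249 for Ppp1r14a. The median of the list was -0.15 without that library, -0.0742 without WT replicate 1, -0.0124 without WT replicate 3 and 0.49 without WT replicate 2. Its count of positive genes was 12 without sST2-KO replicate 3, 13 without WT replicate 1 and 30 without WT replicate 2.

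Of 23 measured regulators of the myocardin and SRF program, 11 had positive and 12 negative log2 changes, beside 53.5% of all tested genes positive. The median of the list was -0.067, and it was 0.14 without WT replicate 2. Groups did not overlap for 1 higher and 3 lower genes of the 23, beside 9.09% and 10% of all tested genes. The myocardin-related factor Mrtfa was at 37.6 ± 4.08 CPM (WT) and 28.5 ± 0.997 CPM (sST2-KO; SD, n = 3 each), which is -0.40 on the log2 scale (SE 0.15, edgeR adjusted p = 0.443). Rbpj, the DNA-binding partner of Notch receptors, was at -0.74 (SE 0.33) and the homeobox gene Prrx1 at -0.86 (SE 0.40). Leaving out WT replicate 2 gave -0.35 for Rbpj and -0.32 for Prrx1. Klf5 was at 119 CPM in sST2-KO replicate 2 and at 1.13 to 3.91 CPM elsewhere, and its log2 change of 4.03 became -1.06 without that library. Klf4, a repressor of contractile genes, was at 93.6 ± 18.3 and 97.7 ± 27.6 CPM, and Mef2d at 111 ± 25.4 and 106 ± 22.8 CPM (SD, n = 3 each).

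Of 29 tested genes for calcium handling, channels and receptors, 10 had positive and 19 negative log2 changes, beside 53.5% of all tested genes positive. The median of the list was -0.11. With WT replicate 2 left out, 20 were positive and the median was 0.26. Groups did not overlap for 3 higher genes and 1 lower of the 29, beside 9.09% and 10% of all tested genes. The plasma membrane calcium pump Atp2b1 was at 96.3 ± 10.7 CPM (WT) and 63.9 ± 7.04 CPM (sST2-KO; SD, n = 3 each), which is -0.59 on the log2 scale (SE 0.16, edgeR unadjusted p = 0.00847, adjusted p = 0.402). The adrenergic receptor Adra1d was at 6.84 ± 1.46 and 10.6 ± 2.23 CPM (SD, n = 3 each). The calcium channel Cacna1h was at 40.2 CPM in sST2-KO replicate 2 and at 3.33 to 7.73 CPM elsewhere. The abundant Atp2a2, the calcium pump of the sarcoplasmic reticulum, and Rhoa, the small GTPase that sensitizes myosin to calcium, had log2 changes of 0.11 (SE 0.25) and -0.31 (SE 0.22).

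Genes linked to the modulated state of smooth muscle had negative log2 changes for all 17 tested members, with a median of -0.76, beside 0.38 for the contractile genes. Groups did not overlap for 9 of 17, all lower, beside 10% of all tested genes lower. In edgeR 0 of 17 passed, with a lowest adjusted p of 0.335, and 7 were lower at an unadjusted p under 0.05, beside 5.95% of all tested genes. DESeq2 called 7 lower, beside 1.47% of all genes it tested. Lum, a matrix proteoglycan, had a log2 change of -1.51 (SE 0.28), Spp1, osteopontin, -1.61 (SE 0.35), Timp1, a protease inhibitor, -1.12 (SE 0.23), and Tnfrsf11b, osteoprotegerin, -1.13 (SE 0.24). Mgp, the abundant inhibitor of calcification, was at 3133 ± 567 and 2964 ± 862 CPM (SD, n = 3 each). These genes are not particular to smooth muscle. Median log2 changes were -0.47 over 8 fibroblast markers, of which Lum is also one, and -0.998 over 8 macrophage markers. Positive changes were found for 2 fibroblast markers and 1 macrophage marker, among them the most abundant of each list, Gsn at 0.35 and Lyz2 at 0.19. The summed macrophage list was at 3835 ± 1112 TPM (WT) and 4593 ± 2515 TPM (sST2-KO; SD, n = 3 each). In sST2-KO replicates 1 to 3 it was 3787, 7413 and 2580 TPM. Of the 7413 TPM, in the library with airway transcripts, Lyz2 alone held 7028 TPM. In CPM, 6 of the 8 macrophage markers were lower without overlap of the groups, beside 10% of all tested genes. DESeq2 called 5 of the 8 lower, beside 1.47% of all genes it tested. The part of fibroblasts and macrophages in the values was not tested.

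**Figure D4:**
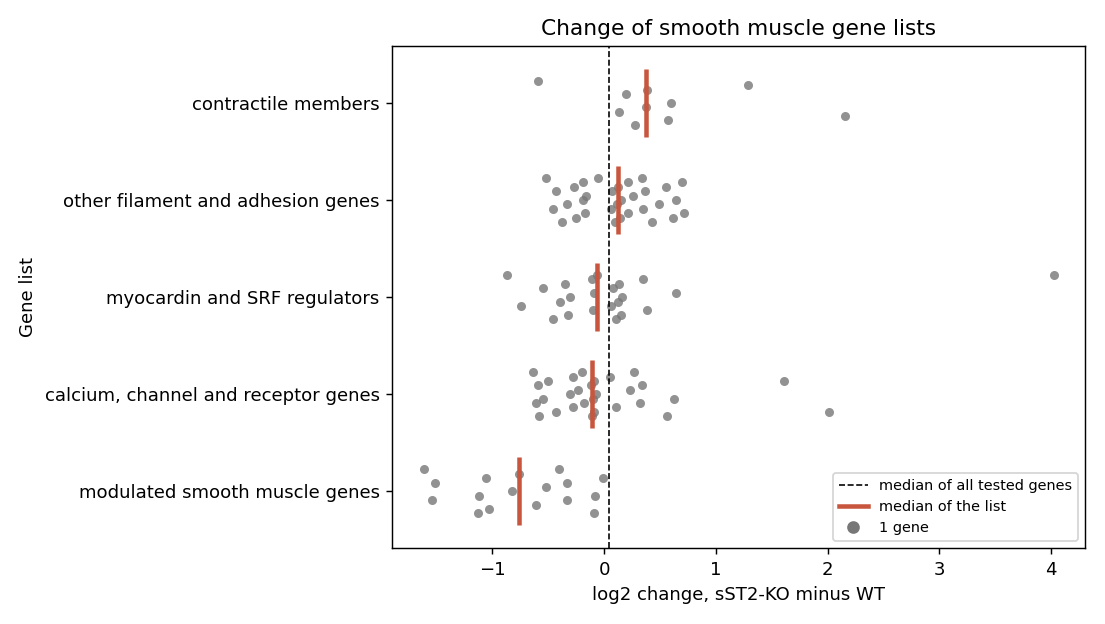
Log2 change of each tested gene between sST2-KO and WT, by list, with the median of each list and, dashed, that of all tested genes. The contractile genes lie around 0.38 and all 17 genes of the modulated list lie under 0.

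Markers of other cell types also differed between libraries. Summed per length, the contractile genes stood at 3983, 6544 and 5498 TPM for WT replicates 1 to 3, against 5751, 8667 and 11782 TPM for sST2-KO replicates 1 to 3. The brown adipocyte markers were at 3655, 569.6 and 2587 TPM (WT) and 5735, 998 and 8193 TPM (sST2-KO), so both were highest in sST2-KO replicate 3. The endothelial markers were at 550, 255 and 469.9 TPM (WT) and 886, 411 and 708 TPM (sST2-KO), and all 8 had positive log2 changes with the median at 0.41, beside 0.38 for the contractile genes. WT replicate 2, which had the most contractile RNA of its group, had the lowest TPM sums of brown adipocyte, cardiac, skeletal, endothelial and hepatocyte markers of all 6 libraries. Part of this order depended on the scale. In CPM, sST2-KO replicate 2 was lower than WT replicate 2 for Fabp4 (888 against 1131), Adipoq (61.4 against 119) and Pecam1 (240 against 331). Ucp1, Cidea, Cox7a1, Elovl3, Cldn5, Egfl7 and Tie1 were lowest in WT replicate 2 in CPM also. The pericyte marker Rgs5 was at 1193 CPM in WT replicate 2, beside 276 to 482 CPM in the others. Abcc9 and Pdgfrb were also highest in that library in CPM, but Kcnj8, Cspg4, Higd1b, Ndufa4l2 and Vtn were not. The pericyte list of WT replicate 2 summed to 659 TPM, of which Rgs5 held 412 TPM, beside 385 to 621 TPM in the others. The 621 TPM was in WT replicate 3, the library with hepatocyte transcripts, where Vtn held 178 TPM. The part of tissue composition in the levels of the contractile genes was not tested.

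**Figure D5:**
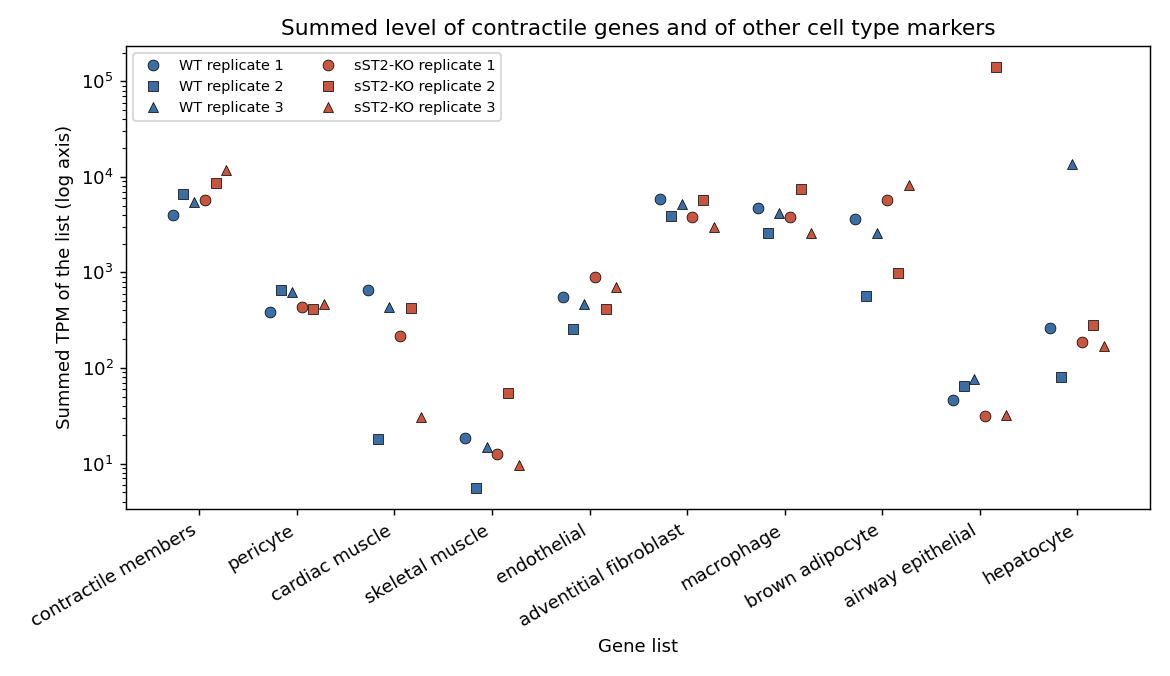
Summed TPM, on a log axis, of the contractile genes and of marker lists for other cell types in each library. The airway list reaches 141255 in sST2-KO replicate 2 and the hepatocyte list 13510 in WT replicate 3, while the contractile sum runs from 3983 to 11782.

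Across the 6 libraries, the genes closest to the median profile of the family were found among 9982 named protein-coding genes with a mean of at least 10 CPM, the 10 members left out. Likeness was the root mean square difference of log2 CPM after centring each gene, and its median over these genes was 0.56. Csrp1 was nearest at 0.073, followed by Tgfb1i1 at 0.092, Dmpk at 0.092, Rbpms at 0.14, Tpm1 at 0.14, Prdm16 at 0.15, Gne at 0.16 and Col4a6 at 0.17. Their log2 changes between genotypes were 0.21 to 0.44, with edgeR adjusted p-values of 0.569 to 0.820. The 6 points share their library's depth and tissue makeup, so the likeness describes these libraries only.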

How the data were processed

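Libraries were made from poly-A RNA with random-primed cDNA, per the labels' protocols. One table deposited by the authors holds the raw counts of all 6 libraries by Ensembl gene, with gene lengths and coordinates, and the submitters' processing notes give build mm39. Which aligner and counting program were used, and whether strand was, was not given in the sources used here. TPM was computed from these counts and the deposited gene length.

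Genotypes were compared with edgeR 4.0.16 (R 4.3.3): filterByExpr (minimum count 10, minimum total 15), TMM, glmQLFit and glmQLFTest, Benjamini-Hochberg adjustment over all 16377 tested genes, threshold 0.05. CPM uses TMM factors; log2 CPM for profiles used a prior count of 2. A SE is the log2 change divided by the square root of F. DESeq2 1.42.0 and limma 3.58.1 (voom, with and without quality weights) were alternatives, with other scalings, filters, a replicate block and each library left out. The code was tested on simulated counts. A count of 0 allows 3 counts, or 0.148 to 0.239 CPM. Libraries differed beyond counting noise in every pair of a group, by 6.55 to 44.9 times over genes with at least 50 counts.

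The members and lists were chosen with earlier results of these data known, so no test over a list is given. Named genes were the 10 members, the 4 of lowest p and 2 of highest mean TPM of each other list (for markers of other cells, only where they stand beside a result), the 8 closest in profile and overlapping genes. A gene that this rule names is not reported here. Il1rl1, Apoe, Acta1, Tnnc2, Myh4, Pvalb, Tnni3, Mylpf, Kcnj8, Cspg4, Higd1b and Ndufa4l2 were chosen after values were seen. Of 191 list entries, 190 were in the table. Exon overlap and shared stretches came from GENCODE vM21 (GRCm38), with no coordinate carried over. Plots used matplotlib 3.10.9.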

Additional observations from a re-analysis of the deposited data

How the results depend on the processing

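No contractile gene passed the threshold under any of the 19 alternatives. All 76 list summaries of the family stayed within wide limits: 1.5 times for counts, and for medians the spread between libraries of a group. Within these limits the median ran from 0.13 to 0.77 and the positive members from 6 to 10. The counts of called members were 0 throughout, so staying within the limits says little about stability. With each library left out, the log2 change ran from -0.13 to 1.01 for Acta2, -0.0906 to 0.77 for Myh11, -0.28 to 0.55 for Tagln, -1.05 to 0.698 for Myocd, -0.0249 to 0.82 for Ppp1r14a, -0.0751 to 0.28 for Klf4, -0.26 to 0.11 for Mef2d, -1.06 to 4.59 for Klf5, -0.0923 to 0.27 for Atp2a2 and -0.35 to 0.0655 for Mgp. The positive genes then numbered 12 to 30 in the filament list, 9 to 20 in the calcium list and 0 to 3 in the modulated list. Medians ran from -0.11 to 0.14 for the regulators, -0.32 to 0.26 for the calcium list and -0.84 to -0.61 for the modulated list, and genes called lower over the whole table numbered 0 to 1. Over all genes DESeq2 called 58 higher and 223 lower, and voom with quality weights 8 and 35; of the modulated list they called 7 and 2 lower. Quality weights gave Myocd 0.33, Klf4 -0.089, Mef2d 0.031, 19 positive calcium genes and 2 positive modulated genes, and plain voom gave Myocd 0.00740. With library totals only, the median of all genes moved from 0.042 to 0.15, the share of positive genes from 53.5% to 63.2%, the contractile median to 0.55, the modulated median to -0.61 with 2 positive genes, and Mef2d to 0.060. The modulated list had 1 positive gene with any count kept and 1 with protein-coding genes only. Without WT replicate 3 and sST2-KO replicate 2 together, Klf5 was -1.13, Klf4 -0.098, Atp2a2 -0.14 and Mgp 0.043, the regulators had 6 positive genes, and the modulated list had 2 and a median of -0.89. For Smtn, the log2 ratio of group means was 0.27 from CPM per kilobase and 0.48 from TPM. The cause of these differences was not tested.

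Same-numbered libraries deviated together with correlations of 0.15, 0.046 and -0.087, beside -0.12 to 0.045 for libraries of unlike number. With 3 libraries to a group, these values cannot show whether the replicate numbers pair the libraries. With a replicate block 0 genes were called, as without it, the contractile median was 0.45 and Actg2 was at 1.27 (adjusted p = 0.274); not every library correlated best with its own number. Myocd, at 67 to 444 counts, and Tagln as counted, at 189 to 460, were the members with the fewest counts.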
